A study of Homo sapiens with 13 samples.

Results

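Distal peaks gained in M-phase are accessible regions away from transcription start sites (TSSs) whose ATAC-seq signal was higher in mitotic than in G1 cells. They were chosen by the measured values themselves. A peak counted as gained when it lay more than 2 kb from every GENCODE TSS on hg19, had a mean scaled read count of at least 20 over the M-phase libraries, had a log2 ratio of (M-phase mean + 8) to (G1 mean + 8) of 0.8 or more, and was higher in every M-phase library than in every G1 library. Of 129347 peaks in the table, 96278 were distal by this distance, 20970 of these reached the M-phase minimum and are called eligible here, and 1553 met the whole rule. That is 7.41% of the eligible distal peaks, and because the rule reads the contrast between the phases, no test of that contrast is given for the peaks gained. The size of the set depends on the scaling, since 605 peaks met the rule when every library was given the same total in peaks. In all, 1610 eligible peaks reached the change, and 57 of them were left out because their libraries overlapped. The filter on low values used for the tests below kept 1550 of the 1553.

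The cells were T98G, an established human glioblastoma line, for which the labels name no genetic modification. G1 cells were held without serum for 72 h. M-phase cells were starved for 48 h, released for 36 h into medium with nocodazole, which depolymerizes microtubules and arrests cells in mitosis, and shaken off. Each phase had 3 libraries, and serum release cannot be told apart from the phase, nor can the sequencing platform, since the labels give a HiSeq and a NextSeq run for each M-phase replicate and only HiSeq for the G1 replicates. The labels do not say whether replicates came from separate cultures, so the p-values below measure the spread between these libraries.

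ATAC-seq inserts adapters into open DNA with the Tn5 transposase, and distal peaks are often enhancers, the switch regions that transcription factors bind away from promoters. AP-1, made of FOS and JUN family proteins, is a factor that growth signals such as serum induce and that binds many enhancers of mesenchymal and glioma cells. During mitosis chromosomes condense and most transcription by RNA polymerase II stops. RNA polymerase III transcribes tRNA genes from promoter elements inside the gene, the A box and the B box.

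Sequences from the centre of 5 gained peaks show 2 kinds of region that recur among them. All are the plus strand of GRCh37, the assembly of hg19, and each is 200 bases long. In the first pair, capitals mark an A box and a B box in the same orientation, at chr6:26556769-26556968 and chr6:27463474-27463673. These 2 are named by their nearest protein-coding genes, HMGN4 at 18.2 kb and ZNF184 at 22.7 kb. Each lies nearer to the TSS of another gene or pseudogene.
Peak beside HMGN4: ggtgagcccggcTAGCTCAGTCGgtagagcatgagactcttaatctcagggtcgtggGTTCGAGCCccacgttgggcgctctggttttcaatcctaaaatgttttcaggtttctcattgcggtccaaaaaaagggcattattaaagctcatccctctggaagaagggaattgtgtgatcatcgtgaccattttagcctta
Peak beside ZNF184: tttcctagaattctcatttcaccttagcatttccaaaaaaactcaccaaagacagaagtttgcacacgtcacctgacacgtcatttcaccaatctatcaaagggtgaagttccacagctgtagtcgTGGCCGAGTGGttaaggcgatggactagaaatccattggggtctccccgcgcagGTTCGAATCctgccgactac
In the next 3, capitals mark the AP-1 site TGACTCA, which reads TGAGTCA on the other strand. They lie in an intron of TRIO at chr5:14178838-14179037, in an intron of SMAD3 at chr15:67399386-67399585 and beside CNN1, outside any gene body, at chr19:11646929-11647128.
TRIO intron: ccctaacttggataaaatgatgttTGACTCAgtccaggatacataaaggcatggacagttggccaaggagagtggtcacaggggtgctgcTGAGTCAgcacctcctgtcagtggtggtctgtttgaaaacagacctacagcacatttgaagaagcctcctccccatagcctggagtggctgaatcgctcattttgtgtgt
SMAD3 intron: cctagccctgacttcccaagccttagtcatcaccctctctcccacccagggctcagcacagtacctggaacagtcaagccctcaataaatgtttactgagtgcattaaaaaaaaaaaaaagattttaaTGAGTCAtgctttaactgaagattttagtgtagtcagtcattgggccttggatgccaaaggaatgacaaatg
CNN1: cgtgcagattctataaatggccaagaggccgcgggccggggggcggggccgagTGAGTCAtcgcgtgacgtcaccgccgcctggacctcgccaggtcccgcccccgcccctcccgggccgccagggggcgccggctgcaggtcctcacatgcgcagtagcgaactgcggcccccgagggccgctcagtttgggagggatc

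The gained peaks as a group went from a median scaled read count in G1 of 23.9, 24.2 and 28 in replicates 1, 2 and 3 to 59.3, 63.5 and 69.8 in M-phase. The other 19417 eligible distal peaks stayed near each other, with medians of 34.8, 36.7 and 40 in G1 and 33.4, 33 and 34.6 in M-phase. The rule, which requires a rise, fixes the direction of this contrast. Gained peaks held 1.60%, 1.62% and 1.58% of all scaled counts in peaks in the G1 libraries and 3.05%, 3.07% and 3.18% in the M-phase libraries. Total scaled counts in peaks ran from 4191845 to 5092426 in G1 and from 5475345 to 6000423 in M-phase, so the M-phase libraries had more of their reads in peaks. The median coefficient of variation between replicates of a gained peak was 25.6% in G1 and 16.3% in M-phase.

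**Figure D1:**
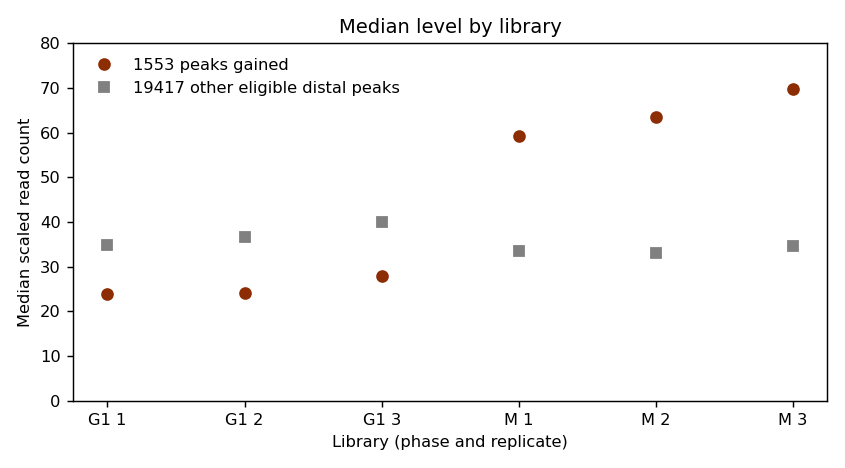
Median scaled read count of the 1553 gained peaks (circles) and of the 19417 other eligible distal peaks (squares) in each of the 3 G1 and 3 M-phase libraries; the vertical axis starts at 0. The medians of the gained peaks run from 23.9 to 28 for G1 and from 59.3 to 69.8 for M-phase, while those of the others run from 33 to 40.

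Most gains were moderate. The median log2 change was 1.03, with quartiles of 0.90 and 1.23, and 847 peaks changed by 1 or more, 153 by 1.5 or more and 22 by 2 or more. A minority had little signal in G1, where 253 (16.3%) had a G1 mean under 10 and 649 (41.8%) a G1 mean under 20. Among the other eligible peaks a G1 mean under 10 was found for 0.52%. The rule itself keeps such weak G1 peaks only when they rise. Strong M-phase signal, a mean of at least 100, was reached by 513 gained peaks (33%) and by 7.17% of the others. The rule reads the M-phase mean as well, so this contrast is not independent of it.

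At the change threshold the peaks on either side had similar values. Just inside it were a peak in an intron of NUDC with 15.9, 14.8 and 25 in G1 and 37.1, 35.4 and 42.3 in M-phase, a peak beside TRIM56 with 80.5, 84.4 and 113 against 163.5, 160.7 and 177.6, and a peak beside QPRT with 10.9, 13.3 and 18 against 21.8, 41.6 and 27.9. Just outside it were a peak in an intron of SGCD with 22.9, 20.3 and 10 against 29.7, 26.8 and 53.9, a peak in an intron of MBTPS1 with 5.0, 8.6 and 11 against 18.9, 15.7 and 26, and an intergenic peak whose nearest protein-coding gene is TEX33 with 53.7, 47.7 and 41 against 107.5, 61 and 97.2. All 6 have a log2 change that rounds to 0.80.

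The largest changes were mostly at 2 kinds of place. Among the 22 peaks that changed by 2 or more, 9 held an A box followed by a B box at the spacing of a tRNA gene, 8 lay within 100 kb of a chromosome end, and 1 held an AP-1 site in its central 200 bases. Among the 706 peaks with a change from 0.8 to 1, these counts were 6, 2 and 192. In the class from 1 to 1.5, 242 of 694 peaks (34.9%) held an AP-1 site, and in the class from 1.5 to 2, 28 of 131 (21.4%) did. Median M-phase means went from 49.8 in the lowest class to 68, 127.5 and 214.2 in the following ones, while the G1 medians were 23.1, 25.4, 34.7 and 33.6.

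Peaks with both boxes were rare and mostly gained. An A box with a B box starting 30 to 90 bases further on the same strand was present in 39 gained peaks (2.51%) and in 16 other eligible peaks (0.0824%), so 39 of the 55 eligible peaks with both boxes (70.9%) were gained. The B box, with or without an A box, was searched as GTTCGANNC on both strands of the whole peak. It was found in 97 gained peaks (6.25%), which include the 39, and in 2.03% of the other eligible peaks. Median counts of the 39 were 98.4, 71.1 and 95 in G1 and 269.8, 288.4 and 315.7 in M-phase. The 16 others were also somewhat higher in M-phase, with medians of 66.6, 83.9 and 97.5 in G1 and 137.6, 147.3 and 153.0 in M-phase. Of the 39, 37 overlapped a CpG island as computed from the sequence, and so did 50 of all 55 eligible peaks with both boxes. Introns held 9 of the 39. The 39 were spread over 12 chromosomes, with 18 on chromosome 6.

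The 18 on chromosome 6 lie between 26 and 29 Mb, where genes for core histones stand among many tRNA genes. There, 27 of 43 eligible distal peaks (62.8%) were gained, and 18 of the 19 eligible peaks with both boxes. This interval was set after the values were seen. A peak whose nearest TSS belongs to the histone pseudogene H3C9P (chr6:26310976-26313584) had 126.3, 85.2 and 84 in G1 and 663.7, 722.7 and 776.6 in M-phase, a log2 change of 2.77. A narrower peak further on, chr6:26327815-26328444, went from 29.8, 7.8 and 12 to 149.1, 160.3 and 167.5. The M-phase libraries lay close together in both peaks, and G1 replicate 1 was the highest of the G1 libraries. Another peak, chr6:26553636-26555997, nearest to the protein-coding gene HMGN4, which codes for a nucleosome-binding protein, went from 130.2, 97.7 and 120 to 673.1, 717.8 and 699.6. Its neighbour chr6:26556441-26557297, whose sequence with both boxes is printed above, went from 22.9, 16.4 and 46 to 226.2, 226.2 and 236.7. On chromosome 12, nearest to the protein-coding gene DHX37, a peak with both boxes (chr12:125423680-125425510) went from 197.8, 181.3 and 224 to 870.9, 1008.3 and 1039.4. Copies of tRNA genes share sequence, so reads could be shared between copies. Of the 39, 15 had more than 10% of their 32-base words at more than 1 place in the genome, and 1 more than 50%. Only 1 of the 39 had no repeated word. Among the 3 eligible peaks with both boxes and no repeated word, 1 was gained, a number too small to read a share from.

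Chromosome ends gave the other strong class. Within 100 kb of the end of an assembled chromosome, 23 of 54 eligible peaks (42.6%) were gained, on 14 chromosomes. Median counts of these 23 were 25.8, 33.6 and 22 in G1 and 125.6, 141.3 and 122.2 in M-phase, and those of the 31 others were 43.7, 54.7 and 43 in G1 and 40.4, 42 and 47.2 in M-phase. At least 2 tandem copies of the telomere word TTAGGG, on either strand, were present in 10 of the 23 and in 0 of the 31. Over all chromosomes they were in 12 gained peaks (0.773%) and in 0.0258% of the other eligible peaks. A peak near the end of chromosome 12 (chr12:133840283-133841533) had 39.8, 11.7 and 15 against 167.3, 168.9 and 116.9, and one near the end of chromosome 21 (chr21:48117762-48118782) had 25.8, 49.2 and 31 against 190.3, 222.5 and 183.3. These regions are repeated. Of the 23, 19 had more than 10% of their words at more than 1 place and 12 more than 50%, and the mapping kept reads with up to 3 locations at a single one of them, so the signal cannot be assigned to a given chromosome end. Among the 10 eligible peaks at chromosome ends with no repeated word, 0 were gained, a number too small to read a share from.

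AP-1 was the commonest of the fixed consensus sites searched in the central 200 bases. It was present in 463 gained peaks (29.8%), in 16% of the other eligible peaks and in 9.71% of all distal peaks. At least 2 sites were found in 101 gained peaks (6.5%) and in 1.90% of the other eligible ones. Around the peak centre, the share of gained peaks with a site was 10.9% in the 50 bases just before the centre and 1.87% in the outermost bin, and the corresponding shares of the other eligible peaks were 4.63% and 0.95%. Split by signal, at an M-phase mean of 20 to 40 the share was 32.8% in gained and 14.3% in other eligible peaks. At 40 to 100 the shares were 33.7% and 18.7%, and at 100 or more 22.8% and 20%. Across eligible peaks ordered by their change, AP-1 sites were in 19.1% of those that fell by 0.8 or more and in 14% of those that changed by 0 to 0.4. Of those that rose by 0.8 to 1.2, 30.2% held one, so the share was higher at both extremes than in the middle. Eligibility reads only the M-phase mean, so peaks that fell needed a higher G1 mean to be included than peaks that rose. These classes therefore differ in G1 level.

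**Figure D2:**
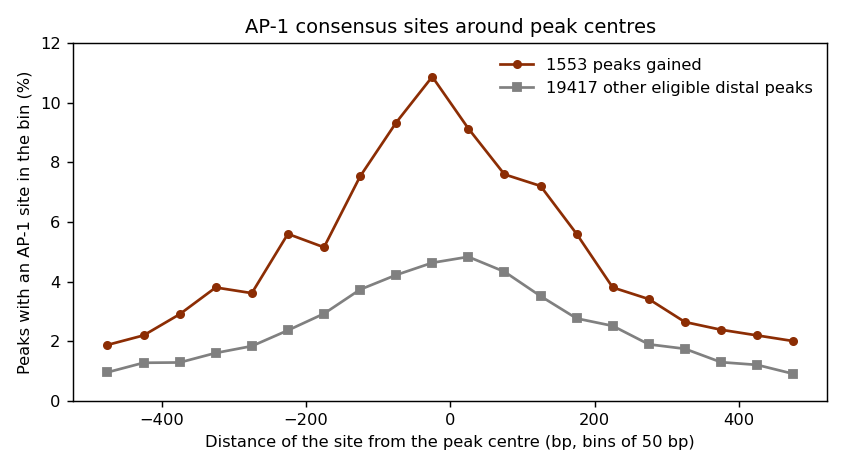
Share of peaks (%) with an AP-1 site TGACTCA, on either strand, in each 50-base bin by distance of the site from the peak centre (bp), for the 1553 gained peaks (circles) and the 19417 other eligible distal peaks (squares). The gained peaks reach 10.9% beside the centre and the others stay at or below 4.83%.

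The other sites were searched in the same way. The RUNX site TGTGGTT was in 4.64% of gained and 6.12% of other eligible peaks, and in 11.6% of the eligible peaks that fell by 0.8 or more. For the forkhead site TGTTTAC the shares were 2.90% and 3.38%, with 6.53% among the peaks that fell. As said above, peaks that fell needed a higher G1 mean to be eligible, so these shares compare unlike G1 levels. TEAD (ACATTCC) was at 4.25% and 4.01%, CTCF at 1.48% and 1.45%, the E-box CACGTG at 4.25% and 3.03%, and the GC box GGGCGG at 9.27% and 8.72%. The cyclic AMP response element TGACGTCA, which the CNN1 peak also carries beside its AP-1 site, was in 9 gained peaks (0.580%) and in 0.232% of the others. TTGCGCAA, the CEBP palindrome, was in 0 gained and 9 other eligible peaks. Each match is a run of letters, not a shown binding site.

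Shares by gene structure lay close to those of the other eligible peaks. Introns held 820 (52.8%), intergenic sequence 628 (40.4%) and exons 105 (6.76%), beside 50.1%, 43.1% and 6.76% of the other eligible peaks. Their median width was 666 bp against 631 bp, their median GC content 47.4% against 50.3%, and their median distance to a TSS 10697 bp against 13603 bp. CpG islands were overlapped by 357 gained peaks (23%) and by 18% of the others. Gained peaks lay nearer to TSSs, with 737 (47.5%) at 2 to 10 kb, against 39.7%, and 134 (8.63%) over 50 kb from every TSS, against 13.9%.

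Shares by chromosome differed widely. Of eligible distal peaks, 30 of 168 were gained on chromosome 14 (17.9%), 72 of 415 on chromosome 19 (17.3%), 84 of 503 on chromosome 10 (16.7%) and 107 of 641 on chromosome 6 (16.7%). On chromosome 7 it was 102 of 2745 (3.72%), on chromosome 5 98 of 2170 (4.52%) and on chromosome 20 64 of 1342 (4.77%). Chromosome 7 had 12512 distal peaks in the table and chromosome 14 had 577. The median log2 change of all eligible peaks differed too. It was 0.255, 0.289, 0.177 and 0.149 on chromosomes 14, 19, 10 and 6. On chromosomes 7, 5 and 20 it was 0.047, 0.013 and 0.122.

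Gained peaks were often neighbours of each other. With a gap of at most 50 kb, 505 (32.5%) lay in runs of 2 or more, 229 of them in 60 runs of 3 or more, and 1048 stood alone. For 381 gained peaks (24.5%) the nearest eligible distal peak was also gained, and this was so for 6.65% of the other eligible peaks. Gained peaks also had closer eligible neighbours, at a median of 11231 bp against 21756 bp. At matched gaps the shares were 44.9% against 10.5% for gaps up to 1 kb, 32% against 7.86% from 1 to 10 kb, 15.7% against 5.82% from 10 to 50 kb and 11.9% against 5.93% beyond. Adjacent peaks can be pieces of a single accessible region, so they are not independent of each other.

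The largest run held 11 gained peaks of 13 eligible in 89.8 kb at ATXN1 (chr6:16681555-16771382), which codes for the ataxin 1 protein of spinocerebellar ataxia, a transcriptional co-repressor. Its changes ran from 0.82 to 1.29, and 3 of the 11 held an AP-1 site. The strongest of them in M-phase, in an ATXN1 intron, had 57.7, 44.5 and 79 in G1 and 143.8, 154.5 and 176.1 in M-phase. A second run, of 10 gained peaks of 12 eligible in 174.9 kb (chr7:130523428-130698342), lay inside LINC-PINT, a long noncoding RNA gene that p53 regulates. Its most changed peak went from 92.5, 107.8 and 108 to 303.6, 316.9 and 381.6, a log2 change of 1.63. Only 1 of these 10 had an AP-1 site. SMURF2, which codes for a ubiquitin ligase that acts on SMAD proteins and TGF-beta receptors, had 7 gained peaks of 8 eligible in 86.2 kb, all but 1 of them outside its gene body. The most changed of these went from 36.8, 35.2 and 55 to 171.8, 184.2 and 143.9.

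Both remaining runs named by size, with 6 gained peaks each, lay on chromosome 6 among the histone and tRNA genes. In the run whose nearest protein-coding gene is ZNF184, all 6 eligible peaks in 114.7 kb were gained, 5 of them with both boxes. Changes ran from 0.82 to 2.30, and distances to ZNF184 from 6.01 to 119 kb. In the run whose nearest protein-coding gene is the histone gene H2BC13, 6 of 7 eligible peaks in 124.3 kb were gained. Of these, 3 held both boxes, changes ran from 0.89 to 1.83, and distances to H2BC13 from 15.8 to 139 kb. All 12 peaks lay nearer to the TSS of another gene or pseudogene. None of these 12 peaks held an AP-1 site. The peak whose printed sequence is named after ZNF184 had 58.7, 43.8 and 85 in G1 and 312.3, 363.8 and 340.2 in M-phase.

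By nearest TSS of any gene, the gained peaks fell to 1304 genes, 1118 of which had a single gained peak. The nearest gene was protein-coding for 702 and a long noncoding RNA gene for 482. Counting protein-coding genes only, there were 1166 nearest genes, 927 of them with a single gained peak. Gene bodies held 915 gained peaks, in 720 host genes. A nearest or host gene is a matter of position, and no link to its expression was measured.

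Several host genes held many gained peaks. RUNX1, a runt transcription factor of blood and mesenchymal lineages, held 9 of 24 eligible, all intronic and 5 with an AP-1 site, with changes from 0.80 to 1.74. The most changed of these, 5.22 kb from a RUNX1 TSS, had 5.0, 10.9 and 28 in G1 and 62.2, 80.8 and 59.7 in M-phase. TRIO, a guanine nucleotide exchange factor, held 6 of 14 eligible. Its printed intronic peak (chr5:14178511-14179366) had 50.7, 64.1 and 73 in G1 and 287.1, 360.9 and 361.4 in M-phase, a log2 change of 2.29, the largest of any gained peak with an AP-1 site, and none of its words was repeated in the genome. KCNMA1, the large-conductance potassium channel gene, held 5 of 11 and RPTOR, a subunit of the mTORC1 kinase complex, 5 of 15. LOXL2, a collagen crosslinking enzyme gene, held 4 of 8, PTPRM, a receptor phosphatase gene, 4 of 5, VMP1, an autophagy gene, 4 of 6, and the DNA repair gene ERCC1 4 of 4. By nearest protein-coding gene, KLF6, a zinc finger factor gene that serum can induce, had 6 of 7 eligible. SMAD3 had 5 of 17, SOX9 5 of 17 and the cytokine gene LIF 4 of 6. COL6A3, a collagen chain gene, had 5 of 12, and ETS2, an ETS transcription factor gene, 4 of 10. These gained peaks lay up to 254 kb from KLF6 and up to 682 kb from SOX9.

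Functions of the nearest genes were counted over 15 gene lists, each read beside the 7.41% of all eligible distal peaks. A gene can be nearest to several peaks, and peaks of a gene are not independent, so the shares below are descriptions. By nearest protein-coding gene the highest share was that of the histone genes, with 12 of 23 eligible peaks (52.2%). On chromosome 6 lay 9 of the 12, and H2BC13 was the nearest protein-coding gene of 6, at 15.8 to 139 kb. By nearest gene of any type the count for histone genes was 2 of 12. Next came NF-kB and cytokine genes with 8 of 41 (19.5%), AP-1 and immediate-early genes with 17 of 90 (18.9%) and actin cytoskeleton genes with 13 of 78 (16.7%). Of the 8 for NF-kB and cytokine genes, 4 had LIF as the nearest protein-coding gene, all in a run of 62.7 kb. By nearest gene of any type, the NF-kB and cytokine list had 3 of 22 (13.6%).

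**Figure D3:**
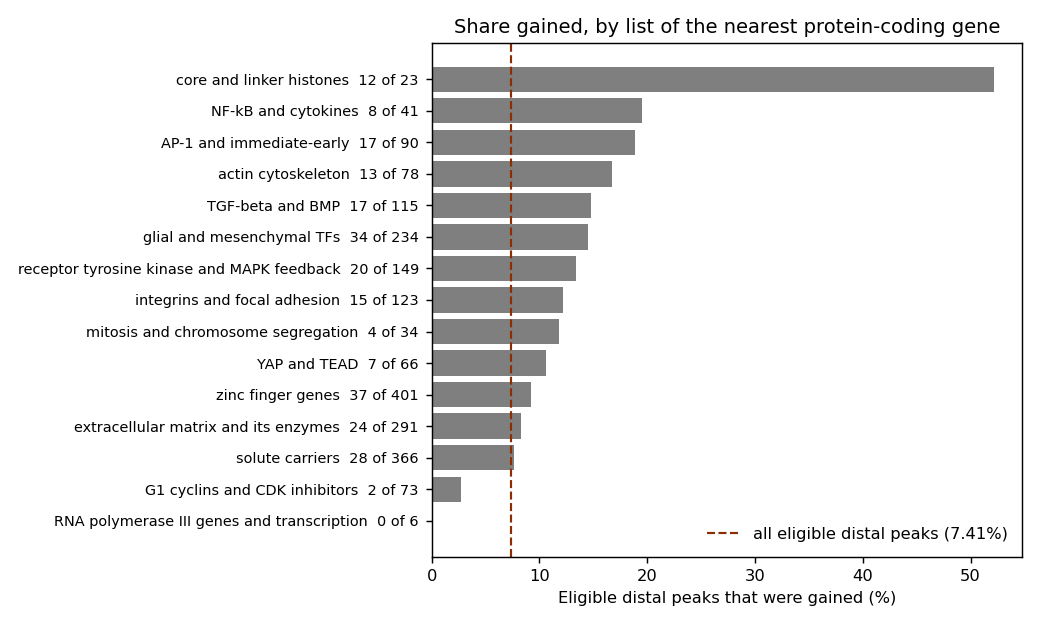
Share (%) of eligible distal peaks that were gained, for peaks whose nearest protein-coding gene is in each of 15 lists, with gained and eligible counts beside the name; the dashed line is the 7.41% of all eligible distal peaks. Histone genes stand at 52.2%, 9 further lists lie between 10.6% and 19.5%, and G1 cyclins and CDK inhibitors lie at 2.74%.

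Immediate-early genes are the ones that serum switches on first. A peak nearest to FOSL1, which codes for the AP-1 subunit FRA-1 (chr11:65670626-65671059), had 10.9, 30.5 and 35 in G1 and 140.9, 142.6 and 126.6 in M-phase, a log2 change of 2.11. In an intron of SRF, the serum response factor gene, a peak had 85.5, 63.3 and 101 against 128.1, 163.6 and 180.9, and beside KLF2 a peak with an AP-1 site had 9.9, 17.2 and 10 against 30.1, 24.3 and 29.8. The FOSL1 peak had the largest change of the 3. By nearest gene of any type, these were the 3 gained of 13 eligible (23.1%).

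Actin cytoskeleton genes had 9 gained of 42 eligible peaks (21.4%) by nearest gene of any type, 5 of them with an AP-1 site. CNN1, the smooth muscle calponin gene, had a peak with 14.9, 30.5 and 31 in G1 and 73.7, 88.2 and 72.7 in M-phase, whose AP-1 site is printed above. FLNC codes for a filamin, which crosslinks actin. The peak beside FLNC went from 54.7, 57.8 and 46 to 119.9, 115.0 and 155.4. In MYH9, the gene of nonmuscle myosin IIA heavy chain, an intronic peak went from 54.7, 89.8 and 73 to 191.6, 195.7 and 200.2. Changes of these 3 lay between 1.18 and 1.36.

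Adhesion and YAP genes gave lower shares. Integrins and focal adhesion genes had 15 of 123 (12.2%) by nearest protein-coding gene. PXN, the gene of the focal adhesion adaptor paxillin, had an intronic peak with 153.1, 150.0 and 186 in G1 and 420.2, 503.5 and 468.7 in M-phase. CD44, the hyaluronan receptor gene, had intronic peaks with 6.0, 3.1 and 7.0 against 33, 24.3 and 34.2, and with 10.9, 10.9 and 13 against 38.7, 45.7 and 24.1. Both started from low G1 values. YAP and TEAD genes had 7 of 66 (10.6%), among them intronic peaks of WWTR1 (18.9, 15.6 and 19 against 59.3, 63.5 and 48.6), which codes for the coactivator TAZ, and of YAP1 (17.9, 18 and 20 against 62.6, 34.6 and 51), its paralog. Extracellular matrix genes stood at 24 of 291 (8.25%), near the background.

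**Figure D4:**
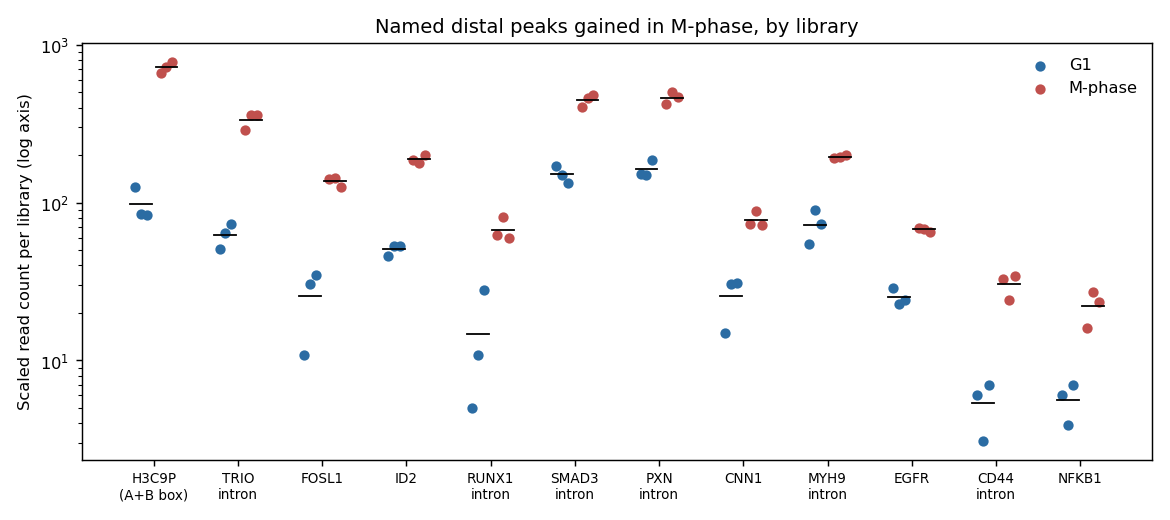
Scaled read counts of 12 named gained peaks in each library on a log axis, with 3 G1 points (blue) and 3 M-phase points (red) a peak and a line at each mean. No peak has overlapping phases, as the rule requires, and the phase means differ most in the peak near H3C9P that holds an A box and a B box.

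TGF-beta and BMP genes had 17 of 115 eligible peaks gained (14.8%). ID2 and ID3 code for inhibitors of helix-loop-helix factors and are targets of BMP signals. Beside ID2, a CpG island peak went from 45.7, 53.1 and 53 to 187.4, 178.4 and 200.2. Beside ID3, a pair of gained peaks went from 137.2, 125.8 and 146 to 294.5, 390.2 and 419.1 and from 35.8, 14.1 and 18 to 108.8, 76.2 and 81.3. All 3 of these peaks lie within 4 kb of a TSS. In SMAD3, which codes for a signal transducer of TGF-beta, the printed intronic peak with an AP-1 site went from 171.0, 150.8 and 133 to 406.6, 461.9 and 483.1.

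Receptor tyrosine kinase and MAPK feedback genes had 20 of 149 (13.4%), 12 of the 20 with an AP-1 site. EGFR, the growth factor receptor often amplified in glioblastoma, had a peak outside its gene body with an AP-1 site, at 28.8, 22.7 and 24 in G1 and 69.2, 68.4 and 65.4 in M-phase. MET, the hepatocyte growth factor receptor gene, had an exonic peak with an AP-1 site at 33.8, 43 and 41 against 83.2, 68.8 and 147.7, where M-phase replicate 3 was well above the others. By nearest protein-coding gene, the DUSP4 phosphatase gene, a feedback inhibitor of MAPK, had 4 of 11 eligible peaks gained, 3 with an AP-1 site. The intronic peak of DUSP4 lay 7.41 kb from its TSS. The others lay 143, 305 and 325 kb away, each nearer to the TSS of another gene. VEGFC, a lymphatic growth factor gene, had an intronic peak at 18.9, 19.5 and 42 against 55.2, 66.3 and 81.3.

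NF-kB and cytokine genes were few. A peak beside NFKB1 had 6.0, 3.9 and 7.0 in G1 and 16.1, 27.2 and 23.6 in M-phase, and a peak beside LIF had 25.8, 27.3 and 16 against 71.7, 68.8 and 58.2. In an intron of IL1R1, the interleukin 1 receptor gene, the values were 21.9, 28.1 and 33 against 39.1, 85.7 and 42.3, with M-phase replicate 2 far above the other replicates.

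Transcription factor genes of glial and mesenchymal identity had 15 of 61 eligible peaks gained (24.6%) by nearest gene of any type and 34 of 234 (14.5%) by nearest protein-coding gene. HMGA1, which codes for a DNA-bending chromatin protein, had a pair of peaks at 17.9, 21.1 and 9.0 against 55.2, 69.2 and 64 and at 85.5, 107.0 and 80 against 266.5, 307.8 and 374.8. SOX9, a glial and cartilage factor gene, had an exonic CpG island peak at 17.9, 10.9 and 12 against 51.5, 62.2 and 61.6. With the RUNX1 peak given above, these were the 4 most changed peaks of the list.

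Of the remaining lists, G1 cyclins and CDK inhibitors had 2 of 73 eligible peaks gained (2.74%), genes of mitosis and chromosome segregation 4 of 34 (11.8%), and genes of the RNA polymerase III machinery 0 of 6. Solute carriers at 28 of 366 (7.65%) and zinc finger genes at 37 of 401 (9.23%) lay near the background. In introns of solute carrier genes the values were 18.9, 16.4 and 17 against 53.6, 70.5 and 102.5 for SLC7A5, an amino acid transporter gene, and 45.7, 29.7 and 40 against 81.6, 97.7 and 94.8 for SLC1A2, a glial glutamate transporter gene.

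Promoters of the nearest genes were not used by the rule, so their peaks could be tested. The question was whether genes beside gained peaks also had more accessible promoters. The fit was limma with a mean-variance trend on log2(scaled count + 8) over 73121 peaks, with Benjamini-Hochberg adjustment over all of them and calls at an adjusted p under 0.05. Of 766 tested peaks that overlap a TSS of a nearest gene, 459 (59.9%) were higher in M-phase and 27 (3.52%) lower, with a median log2 difference of 0.68. Among all 15500 tested promoter peaks, 43.2% were higher and 5.94% lower, with a median of 0.39, so a rise was common at any promoter. For nearest protein-coding genes it was 671 of 1194 (56.2%) higher and 49 (4.10%) lower, beside 47.1% and 5.29% of all protein-coding promoter peaks. These sets were not tested against each other. A trended loess normalization, which removes differences that follow abundance, left 282 (36.8%) higher and 74 (9.66%) lower, beside 21.3% and 17.1% of all promoter peaks. With equal totals in peaks and the gained peaks chosen again, 176 of 339 (51.9%) were higher and 28 (8.26%) lower, beside 29.3% and 17.2%.

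The largest promoter rise was at the H3C9P pseudogene between the first pair of gained peaks on chromosome 6, with 59.7, 51.6 and 105 in G1 and 576.7, 599.1 and 619.3 in M-phase (log2 difference 2.98 ± 0.19 SE, limma adjusted p = 3.78e-23). At a RUNX1 promoter the values were 94.4, 84.4 and 92 against 524.0, 571.1 and 598.1 (2.54 ± 0.18 SE, limma adjusted p = 1.02e-20). Both phases were tight here, and the RUNX1 promoter rose beyond any of its gained intronic peaks. LINC01962, a long noncoding RNA gene, had 321.1, 242.2 and 387 against 1267.2, 1429.8 and 1457.0 at its promoter, HMGN4 had 235.6, 149.2 and 196 against 765.4, 818.7 and 931.6, and a promoter shared by LINC02939 and MIRLET7BHG, the host gene of let-7b, had 490.1, 340.6 and 462 against 1579.8, 1751.6 and 1800.1. Their limma adjusted p-values were 1.35e-19, 9.89e-18 and 3.88e-19.

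Some genes had a gained distal peak and a promoter peak that fell. A promoter peak overlaps the start of any annotated transcript of a gene, so it need not lie at the gene's main start. The promoter peak of DIRC3, a long noncoding RNA gene, went from 102.4, 85.2 and 98 to 21.4, 26.8 and 22.6 (log2 difference -1.71 ± 0.24 SE, limma adjusted p = 1.7e-08), while its gained peak rose by 1.32. ADAM22, a neuronal adhesion protein gene, went from 417.6, 403.9 and 752 to 170.5, 184.6 and 168.4 (limma adjusted p = 2.06e-10), and PDE11A, a phosphodiesterase gene, from 461.3, 402.3 and 623 to 163.1, 162.3 and 192.5 (limma adjusted p = 1.51e-10). MAD1L1, a spindle checkpoint gene, went from 52.7, 41.4 and 76 to 15.7, 16.5 and 14.4 (limma adjusted p = 1.49e-05). The 3 G1 values stand above the 3 M-phase values in each of these promoters.

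Around the gained peaks, distal peaks outside the rule were also tested. Rises that met the rule are absent from these peaks, near and far, while falls were kept. Higher and lower calls within a set can therefore not be weighed against each other. The nearest neighbours can be pieces of the same accessible region as a gained peak. Within 50 kb, 270 of 3408 tested neighbours (7.92%) were higher and 363 (10.7%) lower in the same limma fit. Among all 48369 tested distal peaks, gained ones included, 6.17% were higher and 15.5% lower, and among the distal peaks beyond 50 kb that were not gained, 2.68% were higher and 16.5% lower. Across distances, the share of higher calls was largest and that of lower calls smallest next to the gained peaks. Up to 1 kb away, 45 of 186 (24.2%) were higher and 4 (2.15%) lower. From 1 to 5 kb it was 11.6% and 9.89%, from 5 to 20 kb 8.17% and 9.54%, from 20 to 50 kb 5.34% and 12.4%, and beyond 200 kb 2.40% and 17.1%. Under the trended loess normalization 353 of 3408 neighbours within 50 kb (10.4%) were higher and 322 (9.45%) lower, beside 4.37% and 13.8% further away. With equal totals in peaks and the gained peaks chosen again, 116 of 1450 (8%) were higher and 279 (19.2%) lower, beside 1.45% and 28%. Higher neighbours fell to 133 of 3480 and 171 of 3545 tested without G1 replicates 1 and 2. They fell to 109 of 3957, 86 of 3944 and 102 of 3246 without M-phase replicates 1, 2 and 3. Without G1 replicate 3 they numbered 264 of 4317, and the gained peaks were chosen again each time.

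**Figure D5:**
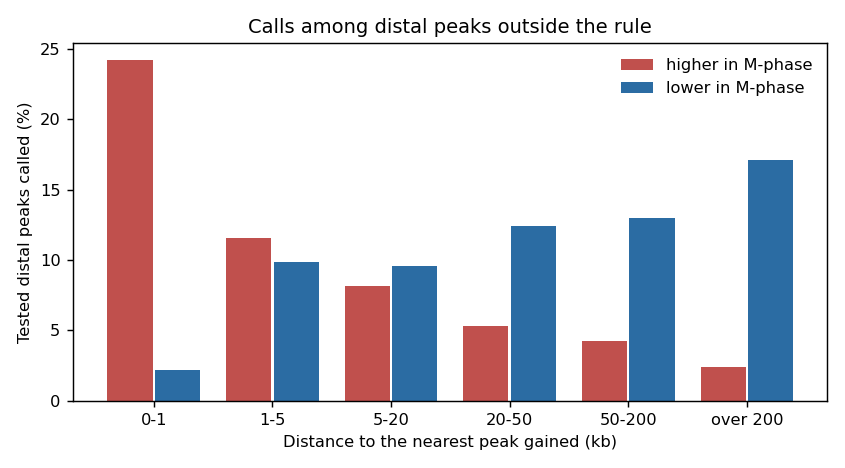
Share (%) of tested distal peaks outside the rule that were called higher (red) or lower (blue) in M-phase by limma at an adjusted p under 0.05, by distance to the nearest gained peak (kb). The share of higher calls goes from 24.2% within 1 kb to 2.40% beyond 200 kb, and that of lower calls from 2.15% to 17.1%.

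As a value for each library, the median log2(scaled count + 8) of these neighbours minus that of all other distal peaks outside the rule was 0.16, 0.12 and 0.16 in G1 and 0.19, 0.22 and 0.26 in M-phase. The difference between the phases was 0.08 (0.15 ± 0.02 in G1 and 0.23 ± 0.03 in M-phase, SD, n = 3), with no overlap between the libraries. By exact permutation (two-sided) p was 0.1, and 3 libraries against 3 cannot give a smaller one. The difference was 0.04 without G1 replicate 3 (exact p = 0.4), and over the alternatives run for it the value ran from 0.03 to 0.10 with exact p from 0.1 to 0.4, so the libraries of the phases overlapped under some of them.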

How the data were processed

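Accessibility of 3 G1 and 3 M-phase libraries was analysed; the chromatin fraction and input samples were not used here. Per the paper's methods, the authors trimmed adapters with cutadapt, mapped to hg19 with Bowtie through QuasR (reads with up to 3 locations, 1 kept), left out mitochondrial reads and merged the replicates before broad peak calling in macs2. No source used here gives the versions, or says whether read ends were shifted for Tn5. The deposited signal values are counts of reads per peak, which the authors had brought to the size of the smallest library; they carry 1 decimal and do not keep the original depths. The authors' log2 ratio and SD columns, which compare the phases, were not used. Each M-phase replicate has a HiSeq and a NextSeq run, and whether or how its column joins them is not stated. Columns of per-sample values left unused numbered 0.

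Since values are scaled, limma 3.58.1 (R 4.3.3, trend) was fitted to log2(scaled count + 8) of all 6 libraries without covariates; at least 3 libraries had to reach the equivalent of 10 in a library of median size and the total 15, which left 73121 peaks. The fit was tested on simulated data. An edgeR test on recovered whole reads had been listed, but was not run, because the rounded values did not give whole reads reliably.

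TSSs, host genes and nearest genes (distance from the peak centre) come from GENCODE release 44 lifted to GRCh37. CpG islands were computed in windows of 200 bases that had 50% GC or more and an observed to expected CpG ratio above 0.6. Repeated words are 32-base words taken every 16 bases. Python 3.11.15, numpy 2.4.6, pandas 2.3.3, scipy 1.17.1, pysam 0.24.0, numba 0.67.0 and matplotlib 3.10.9 were used.

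The gained peaks, gene lists and tests were chosen with earlier results of these data known. Peaks were named when among the 10 largest changes, in the 5 largest runs, among the 4 most changed of a gene list with 3 or more, next to the threshold, of a gene with 4 or more, or among the 5 most changed with both boxes; promoters were the 5 largest rises and falls, of which some are left out for lack of a gene name. A few named items and 1 gene list are not reported here. Alternatives were other scalings, filters, pseudocounts, distances, windows, a replicate block and each replicate left out.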

Additional observations from a re-analysis of the deposited data

How the results depend on the processing

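Gained peaks, chosen again under each setting, numbered 1081 with trimmed mean (TMM) scaling, 2278 with a pseudocount of 1, 1189 beyond 5 kb from a TSS, 1973 with protein-coding TSSs only, 1969 with an M-phase minimum of 10, 1196 without CpG islands and 1510 to 2102 with each replicate left out. With equal totals in peaks, chosen after seeing the data, they numbered 605, all among the 1553; this scaling moved the median of all tested peaks by -0.26 on the log2 scale, so the size of the set depends on the scaling. All 1081 gained under TMM were also among the 1553.

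The share in runs, 32.5%, became 29.3% (TMM), 29.8% (equal totals), 28.9% (beyond 5 kb), 36.2% (protein-coding TSSs), 24.9% (gap of 20 kb) and 41.1% (gap of 100 kb), with a range of 30.1 to 32.6% with each replicate left out. The share whose nearest eligible peak was gained, 24.5%, became 21.1% (TMM), 20.3% (equal totals) and 26.8% (pseudocount 1), with 21.6 to 26.1% over left-out replicates. Higher promoter calls of nearest genes, 459 of 766 tested, became 176 of 339 (equal totals), 821 of 1435 (protein-coding TSSs) and 282 of 766 (trended loess). Over left-out replicates they ran from 407 to 610. Lower ones, 27 of 766, became 51 of 1079 (pseudocount 1), 53 of 1435 (protein-coding TSSs) and 74 of 766 (trended loess). Over left-out replicates these ran from 22 to 32. Higher neighbour calls, 270 of 3408 tested, became 116 of 1450 (equal totals), 177 of 5175 (pseudocount 1) and 179 of 2367 (beyond 5 kb). They became 175 of 1630 (window of 20 kb) and 547 of 9950 (window of 200 kb), and 86 to 264 over left-out replicates. Lower ones, 363 of 3408, became 143 of 1630 (window of 20 kb) and 1211 of 9950 (window of 200 kb). Over left-out replicates these ran from 258 to 354. The phase difference in the level of neighbours stayed positive, from 0.03 to 0.10 on the log2 scale, with exact p of 0.4 for a pseudocount of 1, protein-coding TSSs and without G1 replicate 3, and 0.3 for equal totals and a window of 200 kb. Windows, distances and TSS sets change the number of peaks counted; for the other settings the cause was not tested.

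With the replicate number as a replicate block, promoter calls were 468 higher and 28 lower, and neighbour calls 310 and 386, so no count moved by over 1.5 times. Same-numbered libraries did not deviate together (r = 0.01, -0.01 and 0.03 for numbers 1, 2 and 3), so no pairing by number was seen. These values cannot exclude that same-numbered libraries were prepared together. An edgeR test on whole reads was not run.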
